A study of Mus musculus with 2 samples.

Results

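Translation factors are the proteins that bring the ribosome to a messenger RNA, set it on the start codon and move it along. Their genes were taken as all probe sets of the array that carry exactly 1 gene symbol, where the symbol is Eif or Eef followed by a number and the eIF2 kinase genes (Eif2ak) are left out. This gave 142 probe sets of 45101, for 54 genes of the 18194 that have a probe set with 1 symbol. They fall into initiation factors, elongation factors, eIF4E-binding proteins and a few enzymes and partners that share the name. The rule reads symbols and no measured value, though the family was picked with earlier results of these data in view.

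The study profiled MOS-J, a mouse osteosarcoma cell line, on 2 Affymetrix mouse arrays. The control array holds total RNA of MOS-J cells given a control vector, and the DKK1 array that of MOS-J cells given the human DKK1 gene, both described as lentiviral by the labels. DKK1 is a secreted inhibitor of canonical Wnt signalling, and the comparison asks what carrying it does to the expression profile of the tumour cells. The protocols describe G418-selected clones of a lentiviral route, blasticidin-selected lines of a plasmid route, and a red mitochondrial label with cell sorting. The sources used here do not say which of these the profiled cells went through or whether each line was 1 clone.

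Initiation begins when eIF2, loaded with GTP and the initiator tRNA, joins the small ribosomal subunit together with eIF1, eIF1A, eIF5 and the large eIF3 complex. The cap-binding protein eIF4E, the scaffold eIF4G and the helicase eIF4A bring this particle to the capped end of the mRNA, and eIF4E-binding proteins block that step unless the kinase mTOR phosphorylates them. The exchange factor eIF2B reloads eIF2 with GTP, and phosphorylation of eIF2 under stress inhibits eIF2B, lowers general translation and favours translation of the transcription factor ATF4. In elongation, eEF1A delivers aminoacyl-tRNA and eEF2 moves the ribosome by a codon.

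Each group has 1 array, so no difference below has a replicate check, and there are no tests and no p-values. The values are MAS5 signals on a linear scale, with 1 signal for each probe set and array. Differences are in log2 units, DKK1 minus control, taken after adding a pseudocount of 16.6 (the 25th percentile over every signal) to each signal. Probe sets whose 2 signals averaged 71.3 or more, the median of such averages, are termed measured. A gene's difference averages those probe sets, and the SD given with it describes their disagreement, not that of cultures. Calls, higher or lower, needed a 2-fold difference, which is 1 in log2, and one sign in every measured probe set. Signals of different probe sets are not comparable as levels, so only the arrays are compared within a probe set. In bulk RNA, fewer cells of a type and less RNA per cell cannot be told apart.

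The arrays share a trimmed mean of 500, which the scaling fixes, and the median of all 11058 measured genes was 0.10. Scaled on the 18 hybridisation controls, that median was 0.46, and scaled on the 20 measured poly-A controls it was −0.52. Of all called genes 62.9% were higher as deposited, against 47.9% with median centring, 49.9% with quantile normalization, 51.6% with loess, 86.2% with hybridisation controls and 15.0% with poly-A controls. Of 11 osteoblast markers, 8 had a probe set with 1 symbol. Of these, 6 reached 71.3 in control cells and 5 in DKK1 cells, with a summed signal of 42751 and 47173 over the brightest probe set of each gene. Sp7, a transcription factor of osteoblasts, had signals of 87.0 and 117, while Ibsp and Dmp1 of mineralising bone stayed below 71.3 on both arrays. Of the 6 measured osteoblast markers 5 lay above 0 as deposited and were not called. They were Sparc (0.94), Col1a1 (0.79), Sp7 (0.36), Alpl (0.27) and Col1a2 (0.05). On the poly-A scaling 4 of the 6 lay below 0. The 1 osteoblast marker called was Phex, a peptidase gene of osteoblasts and osteocytes, lower from 200 to 1.97 on its measured probe set (−3.54). Of 8 leukocyte markers 4 reached 71.3 on each array, with summed signals of 812 and 1122, and the defining marker Ptprc was at most 11.7. Among them Lyz2 was called higher, from 14.5 to 136 (2.29), and Laptm5 lower, from 113 to 44.2 (−1.10), while Cd14, the brightest, had signals of 370 and 521 (0.47, not called). Summed signals of 4 endothelial markers were 163 and 176, with 0 and 1 of them at 71.3. Those of 4 epithelial markers were 363 and 460, with 2 at 71.3 on each array. The part of other cells in the differences below was not tested.

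Of the 54 factor genes, 51 were measured, with 118 of their 142 probe sets. The 3 others had every probe set below 71.3 in the mean. They were Eif4e3, a variant cap-binding protein (2 probe sets, highest signal 47.6), Eef2kmt, a methyltransferase of eEF2 (highest signal 35.4), and Eif4a3, the helicase of the exon junction complex (highest signal 4.99). For Eif4a3 a brighter probe set exists that also carries a second symbol and so lies outside the rule. Eif2s1, Eif4g1, Eif1, Eif3g and Eif4ebp3 had no probe set with their symbol alone and are not analysed here.

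As deposited, most factor genes had differences somewhat below 0, which turned on the hybridisation control scaling, and few differed by 2-fold. Of the 51 measured genes, 38 lay below 0 (74.5%) and 13 above, while 44.1% of all measured genes lay below 0. Called lower were 5 of 51 genes, or 9.80%, beside 6.91% of all measured genes. Called higher was 1 of 51, or 1.96%, beside 11.7% of all. The lower share is near that of all genes, so the count of 5 by itself is no result about the factors. Smaller differences separated the lists more. A difference of −0.5 or lower was found for 15 factor genes (29.4%, against 19.1% of all), and one of 0.5 or higher for 3 (5.88%, against 27.8% of all). The median of the 51 genes was −0.22, which is −0.32 relative to the median of all genes. On the hybridisation control scaling the median turned to 0.15, still −0.31 relative to all genes.

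**Figure D1:**
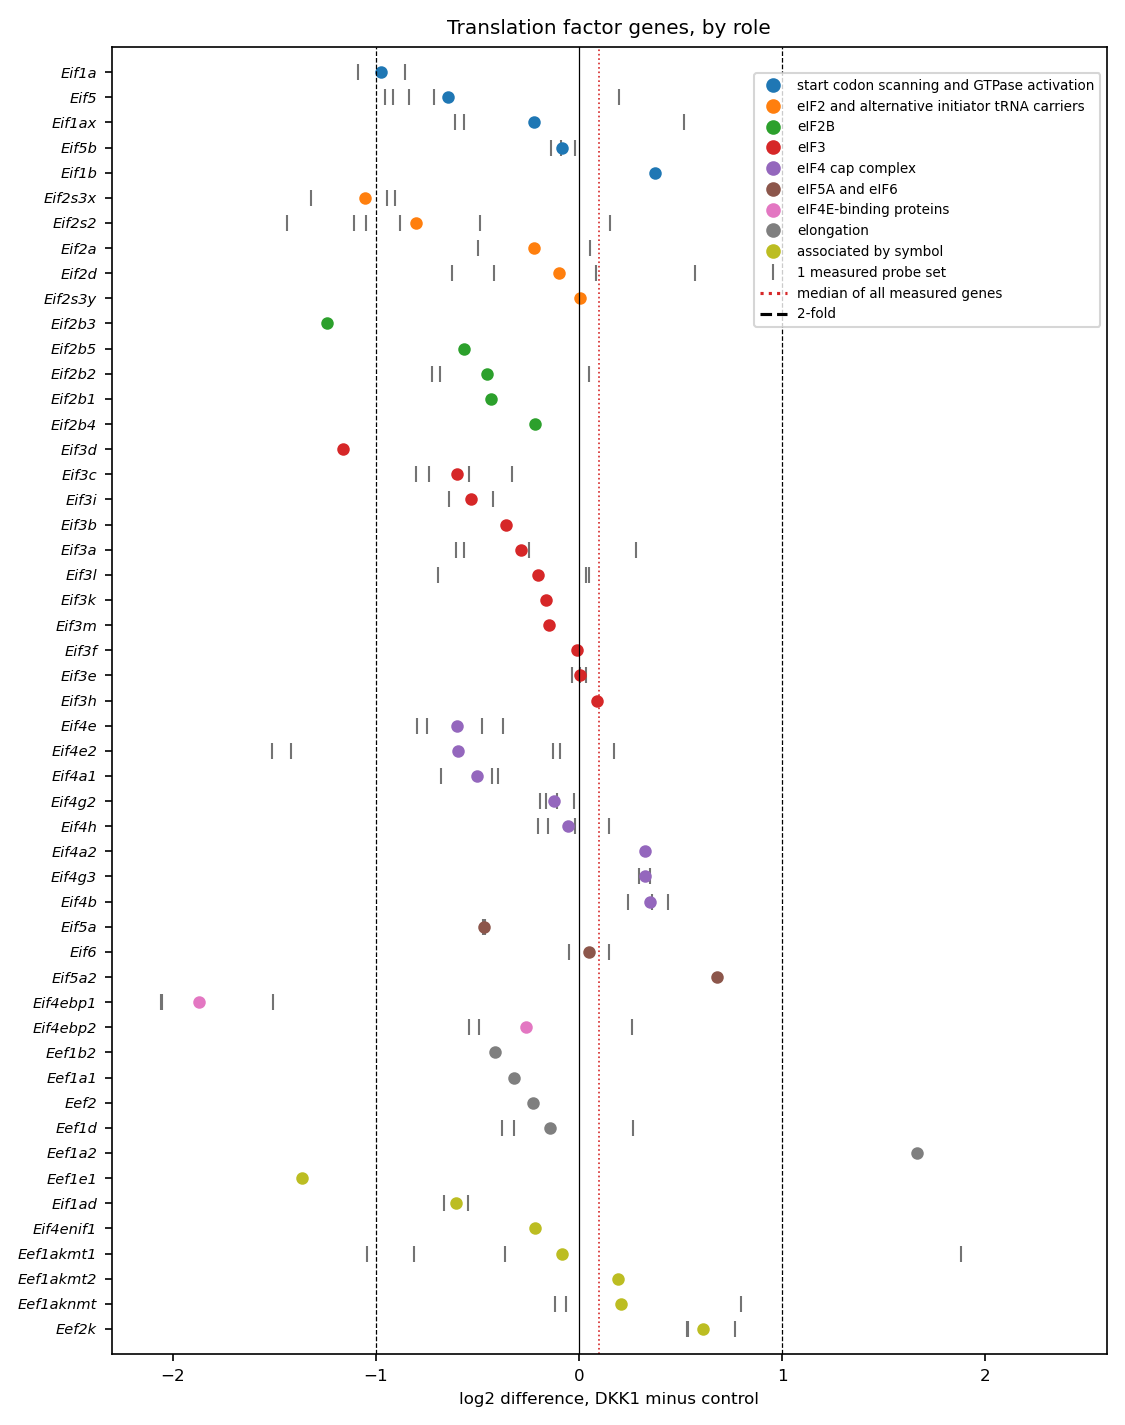
Log2 difference, DKK1 minus control, of the 51 measured translation factor genes on the x axis, grouped by role on the y axis. Coloured dots are gene means and ticks are single measured probe sets of genes with several, the dotted line is the median of all measured genes (0.10) and dashed lines mark 2-fold. Eif4ebp1 lies farthest to the left at −1.87 and Eef1a2 farthest to the right at 1.67.

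The brightness of the probe sets moved with these differences. Among measured probe sets with a mean signal of at least 5000, the 42 of factor genes had a median of −0.44 and all 1398 had a median of −0.21. From 427 to 5000 the 49 probe sets of factor genes had a median of −0.42 and all 8919 had one of 0.01. Between 71.3 and 427 the 27 probe sets of factor genes had a median of 0.03, against 0.21 for all 9051. The median of factor probe sets thus lay below that of all probe sets in each range. For all probe sets the median also fell from the dimmest to the brightest range, where 61.2% lay below 0. With a loess correction on signal the factor median relative to all genes was −0.20, and with quantile normalization −0.19.

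**Figure D2:**
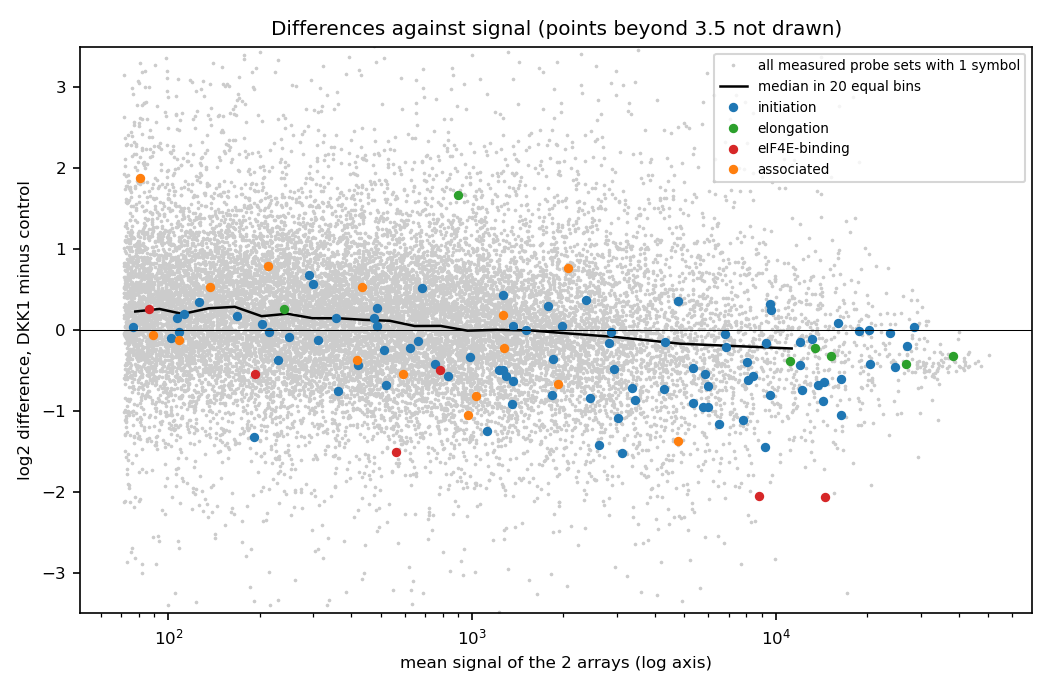
Log2 difference, DKK1 minus control, of each measured probe set (y axis) against its mean signal over the 2 arrays (x axis, log scale), with all probe sets with 1 symbol in grey, their median in 20 equal bins as a line, and factor probe sets in colour by group. The line falls towards bright probe sets, and of the 42 factor probe sets at 5000 or above, 37 lie below 0.

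The eIF4E-binding proteins held the largest difference of the family. Eif4ebp1 encodes the binding protein that mTOR controls and is a known target gene of ATF4. Its 3 probe sets had signals of 14254, 836 and 23440 on the control array and 3421, 284 and 5613 on the DKK1 array. All of them were lower, by −2.05, −1.505 and −2.06, and the gene mean was −1.87 (SD 0.32, 3 probe sets), or 3.66-fold lower. This put it at percentile 1.69 of all measured genes. Its call held under all 12 alternative settings of pseudocount, filter, scaling and probe set choice, where the difference ran from −2.50 to −1.505.

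Eif4ebp2, a paralogue with the same role, was not called (−0.26, SD 0.45, 3 probe sets). Its measured probe sets had signals of 232, 918 and 77.2 in control and 154, 647 and 95.9 in DKK1 cells. The brighter pair was lower by −0.54 and −0.49, and the dimmest was higher by 0.26. It turned to 0.08 on the hybridisation scaling and to 0.06 with no filter, and was −0.84 on the poly-A scaling. The median of the group rests on these 2 genes and is not read further.

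**Figure D3:**
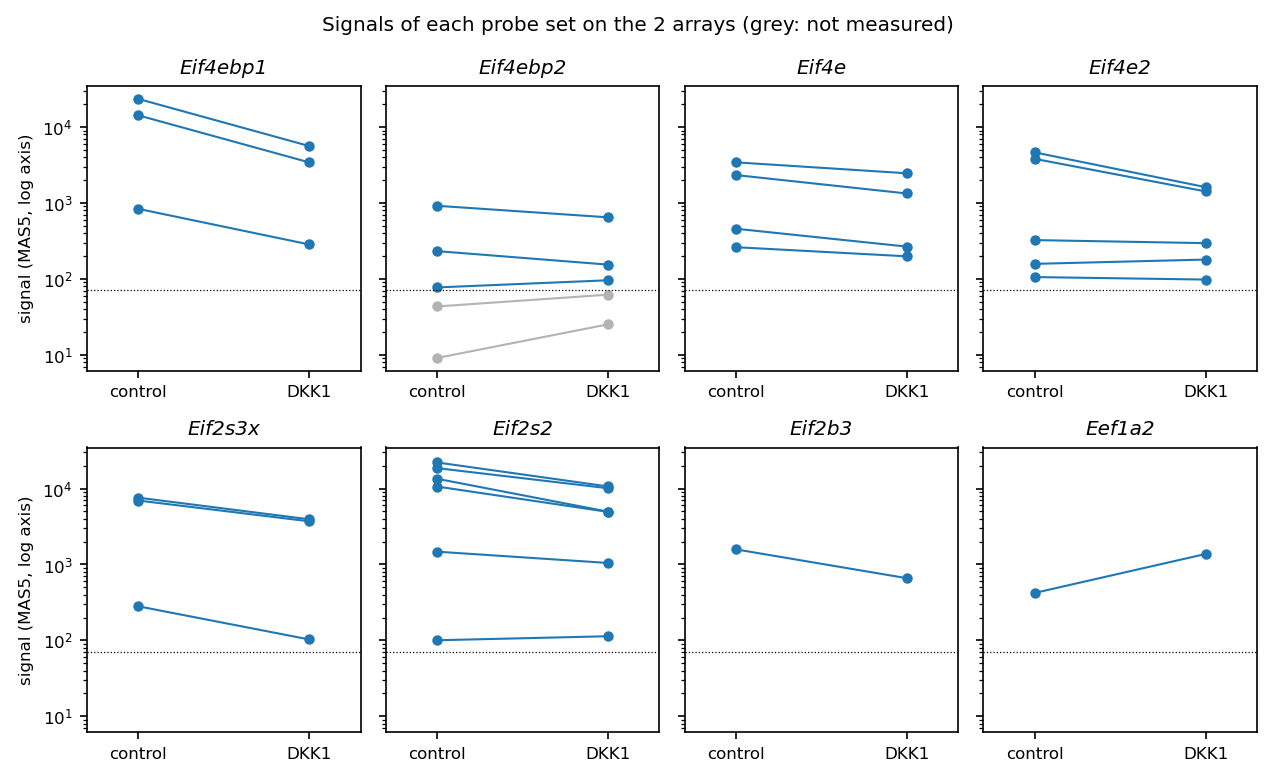
MAS5 signal of every probe set (log y axis) on the control and the DKK1 array for 8 genes, with lines joining the same probe set, blue for measured and grey for unmeasured ones, and a dotted line at 71.3. All 3 lines of Eif4ebp1 descend, those of Eif4e2 and Eif2s2 descend for the bright probe sets and stay nearly level for the dim ones, and the 1 line of Eef1a2 climbs from 422 to 1376.

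Among the proteins that Eif4ebp1 and its relatives bind, Eif4e, the cap-binding protein itself, was lower on all 4 probe sets without reaching 2-fold. Their signals were 2330, 261, 3429 and 457 in control and 1333, 198, 2460 and 266 in DKK1 cells. The mean difference was −0.60 (SD 0.21, 4 probe sets). It was called lower at a 1.5-fold threshold, and at 2-fold on the poly-A control scaling (−1.22).

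Eif4e2 encodes a cap-binding homologue that does not bind eIF4G and takes part in repression of translation. Its probe sets disagreed. The bright pair went from 3810 to 1418 and from 4634 to 1614, differences of −1.42 and −1.51. The 3 dimmer ones went from 106 to 97.98, from 158 to 180 and from 324 to 296, within −0.13 to 0.17. The mean was −0.60 (SD 0.80, 5 probe sets), and the gene was called lower with the stricter filter at 427 and when its brightest probe set stood for it.

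The other members of the cap complex went both ways. Eif4a1, the main RNA helicase of initiation, was lower on its 3 probe sets, from 13811 to 10267, from 9146 to 6941 and from 16945 to 10566 (−0.50, SD 0.16). Its paralogue Eif4a2 went from 8517 to 10664 (0.32, 1 probe set). Thus the helicase genes had opposite signs as deposited, though on the hybridisation scaling Eif4a1 stayed lower at −0.13 and on the poly-A scaling Eif4a2 was lower too, at −0.32. Eif4b, which stimulates the helicase, was higher on 3 probe sets, from 4171 to 5358, from 1072 to 1461 and from 8819 to 10444 (0.35, SD 0.10). On the poly-A scaling it was at −0.29. Eif4g3, a scaffold of the complex, was at 0.32 (SD 0.04, 2 probe sets), and Eif4g2, a scaffold that lacks the eIF4E site, at −0.12 (SD 0.07, 4 probe sets). Eif4h, a relative of Eif4b, was at −0.06 (SD 0.16, 4 probe sets). Of the 8 measured cap complex genes 5 lay below 0 and 3 above as deposited, and 0 were called.

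The promoter window of Eif4e is shown because E-boxes, the CACGTG sites that MYC and other factors can bind, are a described feature of it. Windows of 250 bases before to 50 after the annotated start came from RefSeq on GRCm38.p6, and 43 of the 54 factor genes have one. The motif CACGTG reads alike on both strands. It lay in a window of 12 of the 43 genes (27.9%) and of 8.09% of all 27025 genes with a window, whether measured here or not. A link of the motif to the differences was not tested. The search for this motif was added after the values had been seen. The stretch below ends just before the second of the annotated starts, at chr3:138527018-138527267 on the plus strand, and capitals mark its 2 E-boxes, which begin 228 and 64 bases before the start. A match is a description of the sequence and says nothing about binding in these cells.
Eif4e: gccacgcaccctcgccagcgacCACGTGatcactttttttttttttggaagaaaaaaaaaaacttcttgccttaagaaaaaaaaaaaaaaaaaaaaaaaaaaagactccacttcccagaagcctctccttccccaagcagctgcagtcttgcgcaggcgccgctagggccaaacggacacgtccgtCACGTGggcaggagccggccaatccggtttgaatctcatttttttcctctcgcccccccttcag

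In eIF2 with its alternatives and in the exchange factor eIF2B, 1 of 5 measured genes each was called lower. The medians were −0.22 and −0.45 as deposited, and 0.15 and −0.08 on the hybridisation scaling. Eif2s3x, the X-linked gene of the subunit that binds GTP and the initiator tRNA, went from 281 to 103, from 6947 to 3701 and from 7577 to 3933. All 3 probe sets were lower, by −1.32, −0.91 and −0.94, with a mean of −1.06 (SD 0.23). That call is close to the threshold and ended under 4 of the 12 alternatives, at −0.95 with the larger pseudocount, −0.92 with the stricter filter, −0.70 on the hybridisation scaling and −0.94 for its brightest probe set. Its Y-linked homologue Eif2s3y had signals of 1506 and 1511, a difference of 0.0043. The homologues are similar in sequence, and 1 of the Eif2s3x probe sets is of the kind that may cross-hybridise.

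Eif2s2 encodes another subunit of eIF2 and has 6 measured probe sets. The 4 brightest went from 22060 to 10648, from 10622 to 4928, from 13443 to 4952 and from 18562 to 10086, differences of −0.88 to −1.44. The 2 others went from 1474 to 1046 (−0.49) and from 100.4 to 113 (0.15). With a mean of −0.80 (SD 0.56) and probe sets of both signs the gene was not called, but it was called lower when its brightest probe set stood for it. Eif2a and Eif2d, which can carry initiator tRNA without eIF2, were at −0.22 (SD 0.39, 2 probe sets) and −0.10 (SD 0.54, 4 probe sets), each with probe sets of both signs.

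All 5 eIF2B genes lay below 0, and 1 was called. Eif2b3, a subunit of the catalytic part, went from 1580 to 659 on its 1 probe set (−1.24, or 2.36-fold lower). That call ended on the hybridisation scaling, at −0.87. Eif2b5, the subunit that carries out the nucleotide exchange, went from 1550 to 1042 (−0.57), and its unmeasured probe set, from 35.2 to 80.1, turned the gene to 0.17 when no filter was set. Among the regulatory subunits Eif2b1 went from 486 to 355 (−0.43) and Eif2b4 from 671 to 575 (−0.22). Eif2b2 was lower on 2 probe sets, from 5354 to 3240 and from 643 to 395, and nearly level on the third, from 1337 to 1386 (mean −0.45, SD 0.44). The eIF2B median was −0.55 relative to all genes, and between −0.68 and −0.50 over the 12 alternatives. On the hybridisation scaling Eif2b4 turned to 0.14, and the other 4 stayed below 0.

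Factors that help eIF2 find the start codon gave differences of both signs. Eif5, the protein that triggers GTP hydrolysis on eIF2, was lower on 4 of 5 probe sets, from 7876 to 4063, from 4168 to 2539, from 1781 to 936 and from 3149 to 1754. The fifth and dimmest went from 104 to 122, and the mean was −0.64 (SD 0.48). Eif1a, for the scanning factor eIF1A, went from 4434 to 2441 and from 4109 to 1924 (−0.97, SD 0.16). It lay just inside 2-fold and was called with median centring (−1.14) and on the poly-A scaling (−1.61). Eif1ax, a nearly identical X-linked copy, was lower on 2 probe sets and higher on 1 (−0.22, SD 0.64), and signals of these copies may be mixed. Eif1b, a homologue of the start codon factor eIF1, went from 2069 to 2684 (0.37), and was at −0.26 on the poly-A scaling. Eif5b, the GTPase that joins the ribosomal subunits, was at −0.08 (SD 0.06, 3 probe sets).

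In the eIF3 complex, which holds the other factors on the small subunit, differences were small for most subunits and 1 of 11 measured genes was called. Eif3d, a subunit that can itself contact the cap of some mRNAs, went from 9024 to 4028 on its 1 measured probe set (−1.16, or 2.24-fold lower). The call ended with no filter, where a dim probe set entered (−0.83), and on the hybridisation scaling (−0.79). Some of its partners stood almost level. Eif3e had signals of 28103, 24069 and 20314 in control and 28843, 23538 and 20381 in DKK1 cells (0.0033, SD 0.03). Eif3f went from 18822 to 18714 (−0.01) and Eif3h from 15505 to 16468 (0.09).

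The scaffold and core subunits of eIF3 lay between these. Eif3c was lower on all 4 probe sets (−0.60, SD 0.21), Eif3i on both of its own (−0.53, SD 0.15) and Eif3b on its 1 (−0.36). Eif3a was at −0.28 (SD 0.41) with 3 of 4 probe sets lower, Eif3l at −0.20 (SD 0.42) with 1 of 3, Eif3k at −0.16 and Eif3m at −0.15. The eIF3 median was −0.20 as deposited and 0.14 on the hybridisation scaling, and as deposited all 11 genes lay below the median of all genes.

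Eif5a, for a factor with a hypusine residue that helps the ribosome through difficult peptide bonds, went from 6190 to 4462 and from 28605 to 20789. These gave a mean of −0.47 (SD 0.01, 2 probe sets). Its paralogue Eif5a2 went from 219 to 361 on its 1 measured probe set (0.68). It was the highest of the genes grouped here with initiation, followed by Eif1b (0.37). Eif6, which keeps free large ribosomal subunits from joining small ones, was at 0.05 (SD 0.14, 2 probe sets). Eif5a stayed below 0 under the 11 alternatives that gave it a value (−1.10 to −0.09), and Eif5a2 above 0 under its 11 (0.08 to 1.03). Over all 37 measured initiation factor genes, 28 lay below 0, 3 were called lower and 0 higher, and the median was −0.22. That median turned to 0.14 on the hybridisation scaling. Relative to all genes it was −0.32, and between −0.48 and −0.23 over the 12 alternatives.

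Of the 5 measured elongation factor genes, the eEF1A variant gene Eef1a2 was called higher, and the other 4 had differences slightly below 0 that did not reach 2-fold. Eef1a1, which encodes the general carrier of aminoacyl-tRNA, went from 42602 to 34144 (−0.32), and Eef2, for the translocase, from 14477 to 12375 (−0.23). Of the exchange factor subunits Eef1b2 went from 30767 to 23086 (−0.41). Eef1d went from 12555 to 9670 and from 16927 to 13538 on its bright probe sets and from 217 to 264 on a dim one (−0.14, SD 0.36, 3 probe sets). Apart from the dim one of Eef1d, these probe sets had mean signals over 5000, where the measured probe sets of all genes had a median of −0.21. Relative to all genes the median of the 5 elongation genes was −0.33 as deposited, but −0.03 with quantile normalization and 0.02 with loess. The highest values over the alternatives were 0.06 for Eef1a1 and 0.15 for Eef2, while Eef1b2 stayed below 0 under the 11 that gave it a value (−1.05 to −0.04).

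Eef1a2 is the form of eEF1A found mainly in muscle and nerve cells, and is also reported in tumours. Its 1 probe set went from 422 to 1376, a difference of 1.67 or 3.17-fold. As deposited it was the only factor gene called higher, and the call held under all 12 alternatives, from 1.04 on the poly-A scaling to 2.03 on the hybridisation scaling. No second probe set bears on it. Eef2k, the kinase that inactivates eEF2, was higher on its 3 probe sets without reaching 2-fold, from 1525 to 2610, from 109 to 165 and from 352 to 519 (0.61, SD 0.13). It was 0.01 on the poly-A scaling.

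Some genes share the name but work beside the factors. Eef1e1 encodes a small scaffold protein of the complex of aminoacyl-tRNA synthetases. It went from 6885 to 2662 on its 1 probe set (−1.37, or 2.58-fold lower), second to Eif4ebp1 in the family, and its call ended by a narrow margin on the hybridisation scaling (−0.99). Eif1ad, which takes part in maturation of the small subunit, was at −0.60 (SD 0.08, 2 probe sets), and Eif4enif1, a transporter of eIF4E, at −0.22. The methyltransferase genes of eEF1A were not called. Eef1akmt2 was at 0.19 and Eef1aknmt at 0.21 (SD 0.51, 3 probe sets). Eef1akmt1 had the widest disagreement, with probe sets from −1.04 to 1.88 (mean −0.08, SD 1.34, 4 probe sets), where the highest went from 24.9 to 137.

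Agreement between probe sets limits all of these values. Of 30 factor genes with several measured probe sets, 11 had every probe set lower, 3 had every one higher and 16 had both signs. The pooled SD between probe sets of a gene was 0.48 for these 30 and 0.45 for the 4978 such genes on the array. Differences smaller than that, which are most of those above, are within the disagreement of probe sets of 1 gene.

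**Figure D4:**
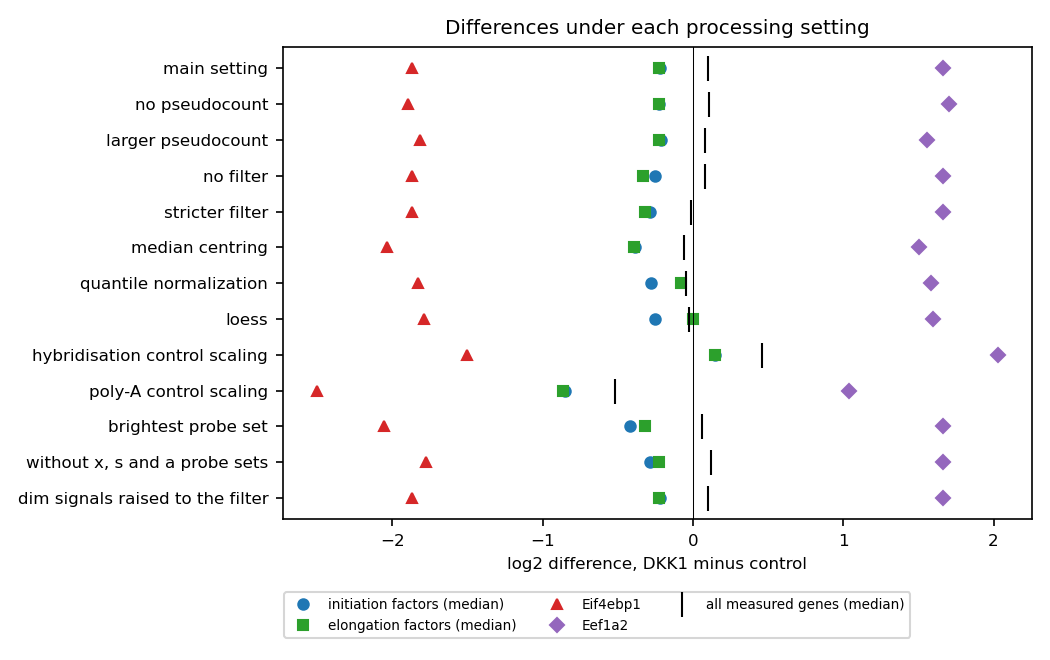
Log2 difference, DKK1 minus control (x axis), under the main setting and each of 12 alternatives (y axis), as the median of initiation factor genes, the median of elongation factor genes, the values of Eif4ebp1 and Eef1a2, and the median of all measured genes as a black tick. Eif4ebp1 stays at −1.505 or lower and Eef1a2 at 1.04 or higher, while both medians turn to 0.14 and 0.15 on the hybridisation control scaling and the elongation median meets that of all genes with loess.

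Start sites of factor genes were compared because mRNAs of many translation proteins begin with a C and a run of pyrimidines, the terminal oligopyrimidine motif through which mTOR controls their translation. Of the 43 factor genes with a RefSeq window, 2 had a C at the annotated start followed by at least 4 pyrimidines, Eif3f and Eif2s3x (4.65%, against 3.01% of all genes). The search read only the annotated first base, so this is not a count of mRNAs with the motif. In Eef1a1, for example, that base is a T within a run of C and T that begins 5 bases before it, so the gene was not counted. The runs of Eif3f and Eif2s3x also begin before that base, but there it is a C. Whether the Eef1a1 mRNA begins within this run was not tested. The stretches show 20 bases before and 10 from the start, on GRCm38.p6, for these genes, for Eef1a1 and for the called genes with a window. Capitals mark the run of C and T through the annotated start, or the annotated first base where there is none.
Eif3f: gctcttctgttctaggCTCTCTCTCTTTCT
Eif2s3x: ggcggctgccgagcaTTTTCCTTTTCTCTC
Eef1a1: cgtgtgctggctccgCCCTCTTCCCgaggg
Eef1e1: ctcaatcaaggtcctagctgTgcaggcccc
Eif3d: aggaagtggtagggccatttAcgacagcgc
Eef1a2: gtttttctctcctggtctgcGttctcgctc
They lie at chr7:108934395-108934424 (plus strand), chrX:94212642-94212671, chr9:78481715-78481744, chr13:38659019-38659048, chr15:77970815-77970844 and chr2:181157006-181157035 (all minus strand). Eif3f and Eif2s3x, the genes with the motif at that base, had differences of −0.01 and −1.06, and a link of the motif to the differences was not tested. The core of the C/EBP-ATF response element, TGATGCAA or TTGCATCA, which are the same site on opposite strands, was in no window of the 43 genes and in 1.03% of all genes. No window was matched for Eif4ebp1, Eif2b3, Eif1a, Eef1d, Eef1akmt1, Eif3e, Eif3h, Eif3i, Eif4g2, Eif4e3 and Eif6.

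Other genes of the pathway, from lists written by role, are given by count, beside the 6.91% of all measured genes called lower and the 11.7% called higher. Of 10 genes for eIF2 kinases, phosphatase subunits and stress sensors, 3 were lower (30%) and 1 higher (10%), with a median of −0.15 (0.20 on the hybridisation scaling). Lower were Ppp1r15a, which directs eIF2 dephosphorylation, from 2201 to 353 (−2.58), and the stress factors Ddit3 (−2.45, SD 1.14, 2 probe sets) and Atf4 (−1.28, SD 0.06, 2 probe sets), the last not called on the hybridisation scaling (−0.90) or with no filter (−0.89). Eif2ak2, the eIF2 kinase activated by double-stranded RNA and an interferon-induced gene, was higher on 3 probe sets, from 127 to 487, from 155 to 727 and from 418 to 1658 (1.96, SD 0.15). The kinases activated by endoplasmic reticulum stress, haem lack and amino acid lack, Eif2ak3, Eif2ak1 and Eif2ak4, were at −0.55, −0.02 and −0.01. The value of Eif2ak1 averages 2 measured probe sets of opposite sign (−0.39 and 0.34).

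In mTOR and MNK control, 2 of 16 measured genes were called higher (12.5%, near the 11.7% of all) and 3 lower (18.8%, against 6.91%). Their median was 0.30, and −0.29 on the poly-A scaling. Deptor, an mTOR inhibitor, was higher (1.498, SD 0.23, 4 probe sets), as was Pdcd4, an inhibitor of the eIF4A helicase (1.21), though both calls ended on the poly-A scaling (0.91 and 0.57), and that of Deptor also with no filter (0.92). Ddit4 (−2.21) and Sesn2 (−1.19), both stress-induced inhibitors of mTOR, were lower, so inhibitors went both ways, though the call of Sesn2 ended on the hybridisation scaling (−0.84). The other gene called lower, Larp1, which binds mRNAs with the terminal oligopyrimidine motif, was just past the threshold (−1.004, 1 probe set) and was named after its value was seen. Mtor itself was at −0.22 (SD 0.68, 2 probe sets), with its brighter probe set higher, from 986 to 1185 (0.26), and its dimmer one lower, from 192 to 111 (−0.71). Rptor was at 0.38.

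Of 5 genes of poly(A)-binding proteins and partners, 1 was called lower, Pabpc4 (−1.35, SD 0.15, 2 probe sets), not called on the hybridisation scaling (−0.98). Of 9 genes of termination, recycling and reinitiation 0 were called, yet 8 lay below 0 and the median was −0.60 (−0.27 on the hybridisation scaling), with the release factor gene Etf1 at −0.86 and the recycling factor gene Abce1 at −0.90. Of 8 measured genes for hypusine and diphthamide synthesis, 1 was lower, Dph6 (−1.35, and −0.98 on the hybridisation scaling, where it was not called), and Dhps, the first enzyme of hypusine synthesis, was at −0.89. Of 9 measured mitochondrial translation factor genes, 1 was lower, Tsfm (−1.37), with a median of −0.10 (0.27 on the hybridisation scaling). Among the 4 genes of selenocysteine elongation and ribosome rescue 0 were called, and Eefsec, the elongation factor for selenocysteine, was at −0.80.

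Set beside their nearest partners, the factors differed less than the synthetases that charge tRNA. Of 29 measured aminoacyl-tRNA synthetase genes 14 were called lower (48.3%, against 6.91% of all) and 0 higher (against 11.7%), with a median of −0.92, and −0.55 on the hybridisation scaling. These 29 include mitochondrial synthetases, such as Hars2 and Lars2, while the factor genes leave out the mitochondrial factors given above. Of 45 measured cytosolic ribosomal protein genes 0 were called, 41 lay below 0 and the median was −0.41. Relative to all genes the ribosomal protein median ran from −0.57 to −0.04 over the settings, and that of the synthetases from −1.26 to −0.92. Both sets were picked by symbol after earlier results were known, and with 1 array a group the difference between these medians and the −0.22 of the factor genes was not tested.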

How the data were processed

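The values are MAS5 intensity values as deposited by the authors, 1 signal for each of 45101 probe sets on 2 arrays, made from 500 ng of total RNA each, per the labels. The submitters' processing notes name MAS5, with no version or settings in the sources used here. Trimming 2% at each end gave a mean of 500 for either array. Dim MAS5 signals carry much noise, and detection calls were not used.

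Symbols came from the platform annotation, checked by gene ID against RefSeq of GRCm38.p6. Of 34958 probe sets with 1 symbol 34754 matched and 0 changed. Differences, filter and calls are as given with the results, computed with Python 3.11.15, numpy 2.4.6 and pandas 2.3.3. A simulation run on the calling step planted differences well beyond 2-fold, with noise below the disagreement of real probe sets. It therefore does not bear on calls near the threshold. Control probe sets were left out of genes. The number of arrays limits the precision, and a batch cannot be told apart from a group.

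Described by name were all called factor genes, the highest and lowest of each role and a fixed set of core genes, with further measured members by their values. From each list of other translation genes up to 4 called genes were taken, and a few uncalled ones were added after their values were seen. The members and lists were chosen with earlier results of these data known. Alternatives covered pseudocount, filter, scaling, probe set choice and the fold of a call.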

Additional observations from a re-analysis of the deposited data

How the results depend on the processing

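No paired analysis was possible because each group has 1 array, and for the same reason no replicate could be left out. Scaling decided most. On the hybridisation controls 2 factor genes were higher and 1 was lower, beside 21.6% and 3.45% of all measured genes, and the medians turned to 0.14 for initiation, 0.15 for elongation and 0.15 for all factor genes. On the poly-A controls 1 was higher and 20 of 51 were lower, beside 4.27% and 24.1% of all, with medians of −0.85 for initiation, −0.87 for elongation, −1.67 for eIF4E-binding proteins and −0.85 for all factor genes. At 1.5-fold 3 genes were higher and 9 lower, beside 23.6% and 15.6% of all measured genes. These shifts follow from how the settings are built, since they move all genes or the threshold. Under the other settings 1 gene was higher and 4 to 6 lower, and the medians moved by less than the pooled SD between probe sets of 0.45. Counting Eif5a and Eif5a2 with elongation left both medians at −0.22 and −0.23. For single named genes, 405 of 447 values kept their call, or stayed uncalled and moved by less than that SD. A call was lost in 16 and gained in 11, 15 moved further with no call, and 0 called genes changed sign. Values that kept a call could move by more than that SD, as Ddit3 did from −2.45 to −3.25 with the stricter filter.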

Other observations

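A few probe sets carry a factor symbol together with another one and lie outside the rule of 1 symbol. The 3 probe sets shared by Eif3j1 and Eif3j2, copies of the gene for a loosely bound eIF3 subunit, went from 1747 to 808, from 927 to 489 and from 4891 to 2332, differences of −1.10, −0.90 and −1.06. These differences lay below those of the measured probe sets of the other eIF3 genes, except Eif3d. The measured probe set shared by Eef1g and a predicted gene went from 29953 to 25527 (−0.23), and the one shared by Eif4a3 and a predicted gene from 3334 to 3198 (−0.06). These signals cannot be assigned to 1 gene.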
